A study of Mus musculus with 10 samples.

Results

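The genes described are the 10 circadian clock genes Clock, Per1, Per2, Per3, Cry1, Cry2, Nr1d1, Nr1d2, Dbp and Tef, chosen by gene symbol among 19505 genes measured on 10 single-colour arrays. All 10 were found, each with 1 probe set. The arrays held RNA from small intestine organoids of BALB/c mice, which are epithelial cultures grown in Matrigel. Every culture was exposed to 20 ng/ml recombinant murine TNF for 48 h. The 5 vehicle cultures also received 2.625 mM PEG, and the other 5 received pegtarazimod at 5 mg/ml, which is a PEGylated peptide that is known to block the start of the classical complement pathway and the neutrophil enzyme myeloperoxidase. The comparison asks which transcripts pegtarazimod altered under TNF. Cultures without TNF were not analysed here, the clock time of harvest is unstated in the labels, and so is what separated the cultures called biological replicates, so p-values measure the spread between these arrays.

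The mammalian clock is a transcriptional loop. CLOCK pairs with BMAL1 (encoded by Arntl) and activates genes through E-boxes, among them Per and Cry, whose proteins repress the pair, and Nr1d1 and Nr1d2, whose products REV-ERB alpha and beta repress Arntl. Dbp and Tef encode PAR bZIP activators that act on D-boxes and carry the rhythm to output genes of metabolism. The loop runs in intestinal epithelial cells, and TNF is known from fibroblasts to lower transcription of Per and PAR bZIP genes.

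Stretches of promoter sequence searched for elements of this loop are given for the 3 members with the largest positive differences, Dbp, Tef and Nr1d1. Per3 is added as the only member with a D-box match in the windows searched. They are from RefSeq on build GRCm38.p6, written 5′ to 3′ on the strand of the gene, and end before the start of its annotated transcripts. Capitals mark matches to the motifs searched on both strands.
Dbp, chr7:45704997-45705099, plus strand: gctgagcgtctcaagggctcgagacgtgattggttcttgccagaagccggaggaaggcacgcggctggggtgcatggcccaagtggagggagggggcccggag
Tef, chr15:81802423-81802672, plus strand: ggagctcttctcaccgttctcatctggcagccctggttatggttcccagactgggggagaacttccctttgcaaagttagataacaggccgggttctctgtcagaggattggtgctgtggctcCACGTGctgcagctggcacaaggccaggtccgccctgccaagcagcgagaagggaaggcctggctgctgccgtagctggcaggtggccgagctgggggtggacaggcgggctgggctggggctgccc
Nr1d1, chr11:98775378-98775627, minus strand: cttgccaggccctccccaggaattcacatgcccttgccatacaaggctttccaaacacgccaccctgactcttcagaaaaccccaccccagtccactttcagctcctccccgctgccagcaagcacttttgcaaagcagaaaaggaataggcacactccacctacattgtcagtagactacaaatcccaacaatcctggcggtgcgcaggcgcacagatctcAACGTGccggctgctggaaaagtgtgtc
Per3, chr4:151044708-151044915, minus strand: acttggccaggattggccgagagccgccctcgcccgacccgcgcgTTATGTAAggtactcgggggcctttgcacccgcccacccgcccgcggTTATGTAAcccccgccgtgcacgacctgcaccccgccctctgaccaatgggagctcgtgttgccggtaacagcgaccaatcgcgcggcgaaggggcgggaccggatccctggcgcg
Tef holds an E-box (CACGTG) at position -127 from the start site, Nr1d1 a noncanonical E-box (CACGTT, here on the opposite strand) at -28, and Per3 a pair of D-boxes (TTATGTAA) at -205 and -158. No searched motif lies in the stretch shown for Dbp, which says only that these letters are not in this window.

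Promoter windows of the 250 bases before a start site were matched for 9 of the 10 members, all but Per2. A member is counted if any of its windows holds the motif, and Clock, Per1 and Tef had more than 1 window. The shares of all windows are per single window, so the counts and shares are not like for like. All windows of Clock and Per1, including that with the E-box of Per1, and 1 window of Tef lie inside the annotated gene. No bases before the start of the gene were thus searched for Clock or Per1. The E-box was found for 3 of the 9 (Cry1, Per1 and Tef) and in 6.02% of 32817 RefSeq windows. The noncanonical E-box was found for 3 (Cry1, Cry2 and Nr1d1) and in 3.85% of windows. The D-box, searched as TTATGTAA, TTACGTAA or TTACATAA, was found for Per3 and in 0.929% of windows. The ROR element, searched as TAGGTCA or TGGGTCA, and the cAMP response element TGACGTCA were found for 0 of the 9 and in 5.39% and 1.55% of windows. None of these motifs contains another, and a match is a description of letters, not of a site in use.

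Values are log2 expression, so a difference of 1 is a doubling, and differences are pegtarazimod minus vehicle with the standard error (SE) of limma. Array medians lay between 5.48 and 5.53. None of the 100 member values lay below the lower quartile of its array, which was 3.84 to 3.90. In both groups the arrays of replicates 1 and 2 lay apart from those of replicates 3 to 5: on the component that held 33.4% of the variance left by the group means, vehicle 1 and 2 were at -13.5 and -12.0 and the other vehicle arrays at 8.20 to 9.02, and pegtarazimod 1 and 2 were at -27.6 and -19.0 and the others at 11.4 to 21.2. The labels name no batch, so member values are also given within these 2 sets of replicates. The epithelial markers Epcam, Cdh1, Vil1, Cdx2, Krt8 and Krt20 were above the lower quartile on every array, with none called. Markers of leukocytes, fibroblasts, endothelium, neurons and glia were mixed in level, and none of them passed the test.

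Of 4 measured leukocyte genes of 6, Lyz2, Cd3e and Adgre1 were above the lower quartile on every array and Ptprc was below it on 3. Lyz2 was at 7.26 to 8.32 in vehicle and 6.94 to 7.79 with pegtarazimod (difference -0.47, unadjusted p = 0.0441, adjusted p = 0.248), while Ptprc lay between 3.77 and 4.50. The summed leukocyte level was 7.66 to 8.54 in vehicle and 7.39 to 8.09 with pegtarazimod. Lyz2 made up most of this sum, since Cd3e (3.94 to 4.46) and Adgre1 (4.01 to 4.50) lay near Ptprc. Lyz1, on the Paneth list, was at 8.83 to 10.21 in vehicle and 8.42 to 9.64 with pegtarazimod. A sum carried by 1 gene does not by itself show that leukocytes were present. Of 4 measured fibroblast genes of 5, Col1a1 (5.97 to 6.68) and Col1a2 (4.98 to 5.38) were above the lower quartile on every array. Col3a1 (3.48 to 4.24) was below it on 8 arrays and Dcn on all 10. The fibroblast genes summed to 6.96 to 7.31 in vehicle and 7.08 to 7.40 with pegtarazimod. The 3 endothelial genes summed to 5.49 to 5.73 and 5.33 to 5.72. Kdr was below the quartile on all 10 arrays, Cdh5 below it on 7, and Pecam1 above it on all 10. The 3 measured neuronal and glial genes of 4 summed to 6.42 to 6.65 and 6.31 to 6.52, with Elavl4 below the quartile on all 10. Lyz2, Col1a1 and Col1a2 were thus above the lower quartile in these cultures, while Col3a1 was mostly below it. The part of these genes in the values of the clock genes was not tested.

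In the fit without a block, none of the clock members passed the test, while Dbp and Tef passed once the 2 sets of replicates entered the fit. These sets were chosen from these same arrays and no label marks them, so the fit with them is not independent support. The deposited sample order also lists replicates 1 and 2 of both groups before replicates 3 to 5, though no label says what the order marks. By limma with Benjamini-Hochberg adjustment over all genes, 0 of 10 members passed at 0.05, against 4.89% of all genes. At an unadjusted p below 0.05 there were 3 members (Dbp, Tef and Nr1d2), against 19.0% of all genes. The groups overlapped for every member, whereas they did not overlap for 6.71% of all genes. Of the 10 differences 7 were positive and 3 negative, with a median of 0.11 beside 0.00 over all genes. With replicates 1 and 2 against 3 to 5 as a block, Dbp (adjusted p = 0.0386) and Tef (0.0374) rose and the other 8 did not pass, where 9.33% of all genes passed. RNA from whole cultures cannot separate fewer cells of a type from less RNA per cell.

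**Figure D1:**
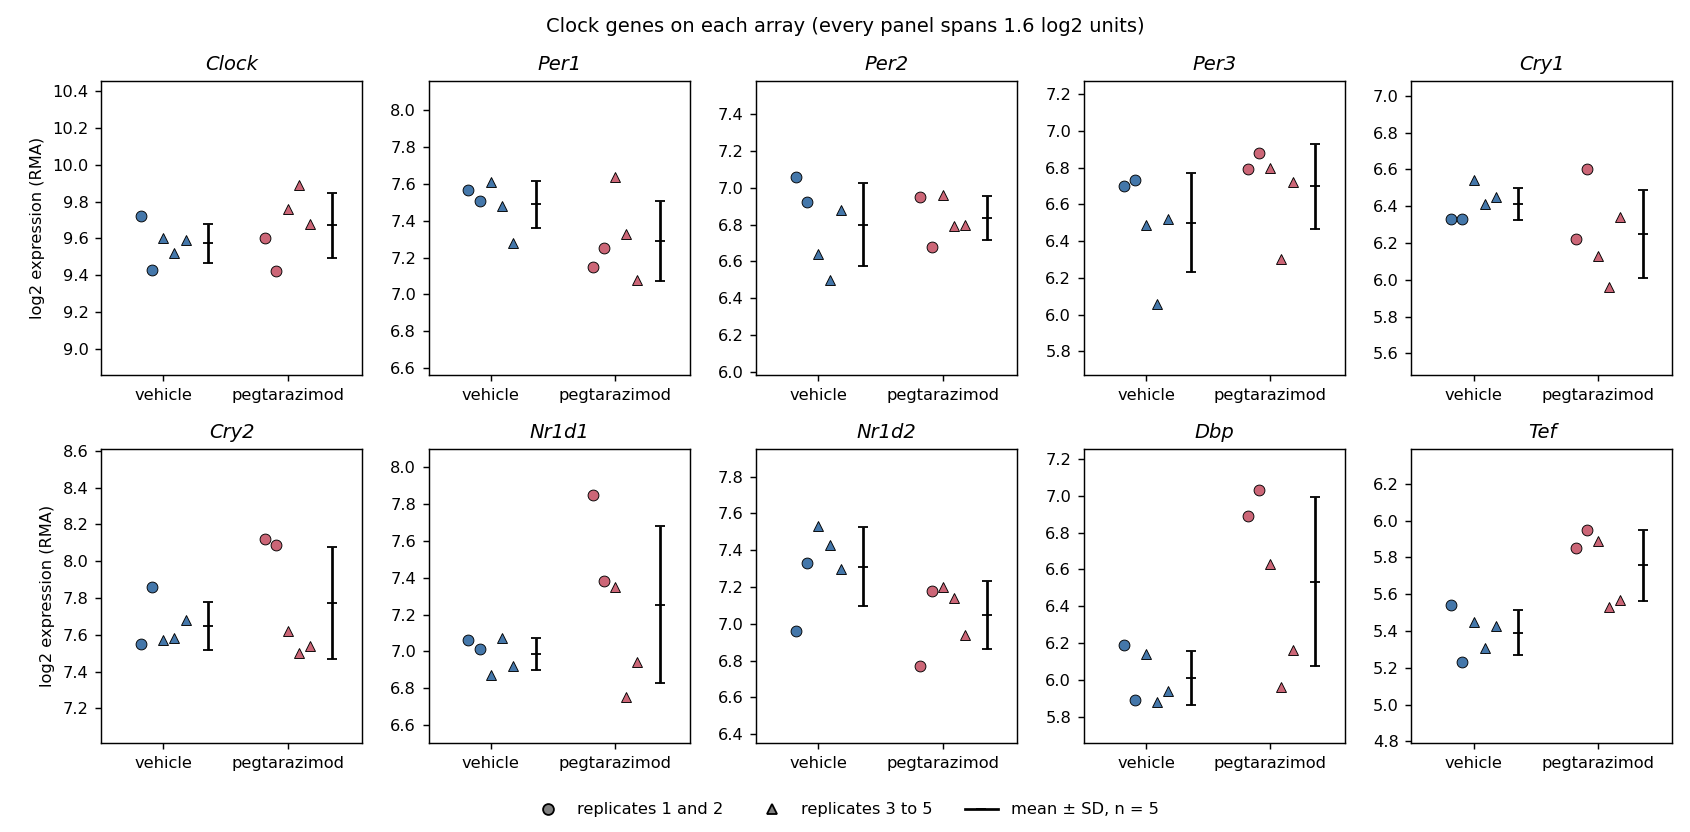
Log2 expression (RMA) of the 10 clock genes on each array, with circles for replicates 1 and 2, triangles for replicates 3 to 5, and the mean ± SD of 5 arrays per group; every panel spans the same range. The pegtarazimod values of Dbp (5.96 to 7.03) and Nr1d1 (6.75 to 7.85) spread more widely than those of vehicle (5.88 to 6.19 and 6.87 to 7.07), and the groups overlap in every panel.

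The PAR bZIP genes Dbp and Tef had the largest differences among the members. Dbp, whose transcript is among the most strongly rhythmic in many tissues, was at 6.19, 5.89, 6.14, 5.88 and 5.94 in vehicle 1 to 5 and at 6.89, 7.03, 6.63, 5.96 and 6.16 in pegtarazimod 1 to 5. Pegtarazimod 1 to 3 lay above all vehicle arrays, and pegtarazimod 4 and 5 lay within the vehicle range. The group means were 6.01 ± 0.15 and 6.53 ± 0.46 (SD, n = 5 each), a difference of 0.53 ± 0.18 (SE), or 1.44-fold with a 95% interval of 1.10 to 1.88, which did not pass (limma adjusted p = 0.117). As large a difference in either direction was found for 4.41% of all genes.

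Tef was at 5.54, 5.23, 5.45, 5.31 and 5.43 in vehicle and at 5.85, 5.95, 5.89, 5.53 and 5.57 with pegtarazimod. All 5 pegtarazimod arrays were above the vehicle mean and 4 were above every vehicle array, so the groups overlapped by pegtarazimod 4 alone. The means were 5.39 ± 0.12 and 5.76 ± 0.20 (SD, n = 5 each), and the difference was 0.37 ± 0.11 (SE; 1.29-fold, 95% interval 1.10 to 1.51; limma adjusted p = 0.0663). Without pegtarazimod 4 both genes passed, Dbp at a difference of 0.67 (adjusted p = 0.0250) and Tef at 0.43 (0.0324), where 6.38% of all genes passed. That array was the lowest pegtarazimod array for both, and neither gene passed on leaving out any of the other 9. Without pegtarazimod 2 the difference of Dbp was 0.40 (adjusted p = 0.251) and that of Tef 0.32 (0.162).

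Hlf, the other PAR bZIP gene, lay below the lower quartile on all 10 arrays (3.08 to 3.70), so its difference of 0.19 (adjusted p = 0.375) is between values near the low end of the arrays. Nfil3, which encodes a repressor that competes for D-boxes, differed by -0.11 (adjusted p = 0.686). Hlf and Nfil3 were named for their roles after their values were seen. Per3, whose promoter stretch shows a pair of D-boxes, was at 6.70, 6.73, 6.49, 6.06 and 6.52 in vehicle and at 6.79, 6.88, 6.80, 6.30 and 6.72 with pegtarazimod. Replicate 4 was the lowest in each group, and 3 of the pegtarazimod arrays lay above every vehicle array. The difference of Per3 was 0.20 ± 0.14 (SE; 95% interval -0.10 to 0.50; limma adjusted p = 0.509). It was 0.09 without vehicle 4 and 0.30 without pegtarazimod 4.

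The E-box activator and the other repressors differed by less. Clock, the histone acetyltransferase partner of BMAL1, was at 9.72, 9.43, 9.60, 9.52 and 9.59 in vehicle and at 9.60, 9.42, 9.76, 9.89 and 9.68 with pegtarazimod. The lowest pegtarazimod value lay below and 2 others lay above the vehicle range. The difference of Clock was 0.10 ± 0.10 (SE), with a 95% interval of 0.921-fold to 1.24-fold (adjusted p = 0.682), and it was 0.04 without pegtarazimod 4 and 0.16 without pegtarazimod 2.

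Per1, a repressor subunit that also responds acutely to cAMP and glucocorticoid signals, was at 7.57, 7.51, 7.61, 7.48 and 7.28 in vehicle and at 7.15, 7.25, 7.64, 7.33 and 7.08 with pegtarazimod. Of the pegtarazimod arrays 3 lay below the lowest vehicle array and pegtarazimod 3 lay above the highest. The difference was -0.20 ± 0.11 (SE; 95% interval -0.44 to 0.04; adjusted p = 0.373). Per2, the subunit whose stability sets much of the period, was at 7.06, 6.92, 6.64, 6.50 and 6.88 in vehicle and at 6.95, 6.68, 6.96, 6.79 and 6.80 with pegtarazimod. All pegtarazimod values of Per2 lay inside the vehicle range, and the difference was 0.04 ± 0.11 (SE; 95% interval -0.20 to 0.28; adjusted p = 0.911). Its sign turned to -0.04 without vehicle 4.

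Cry1, which encodes the late-acting repressor of the loop, was at 6.33, 6.33, 6.54, 6.41 and 6.45 in vehicle and at 6.22, 6.60, 6.13, 5.96 and 6.34 with pegtarazimod. The pegtarazimod arrays spread on both sides of the vehicle range, 3 below it and 1 above, and the difference was -0.16 ± 0.11 (SE; 95% interval -0.41 to 0.08; adjusted p = 0.498), with -0.09 without pegtarazimod 4 and -0.25 without pegtarazimod 2. Its paralogue Cry2 was at 7.55, 7.86, 7.57, 7.58 and 7.68 in vehicle and at 8.12, 8.09, 7.62, 7.50 and 7.54 with pegtarazimod. Pegtarazimod 1 and 2 were the highest of all 10 arrays, while pegtarazimod 4 and 5 were the lowest. The difference of Cry2 was 0.13 ± 0.13 (SE; 95% interval -0.16 to 0.41; adjusted p = 0.683). Cry2 differed by 0.04 without pegtarazimod 1 and by 0.20 without pegtarazimod 4.

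The REV-ERB genes had differences of opposite sign, of equal size over the 10 arrays only. Nr1d1 was at 7.06, 7.01, 6.87, 7.07 and 6.92 in vehicle and at 7.85, 7.38, 7.35, 6.75 and 6.94 with pegtarazimod, a spread of 0.43 (SD) against 0.09 in vehicle. Its difference was 0.26 ± 0.16 (SE; 95% interval -0.09 to 0.62; adjusted p = 0.437). Nr1d2 was at 6.96, 7.33, 7.53, 7.43 and 7.30 in vehicle and at 6.77, 7.18, 7.20, 7.14 and 6.94 with pegtarazimod. All 5 pegtarazimod arrays were below the vehicle mean of Nr1d2 but only 2 below its lowest vehicle array, vehicle 1. The difference was -0.26 ± 0.12 (SE; 95% interval -0.52 to -0.01; adjusted p = 0.252). Without pegtarazimod 1 the difference was 0.11 for Nr1d1 (adjusted p = 0.736) and -0.20 for Nr1d2 (0.454), and without pegtarazimod 4 that of Nr1d1 was 0.39. Whether the 2 REV-ERB genes differ from each other in their response was not tested.

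**Figure D2:**
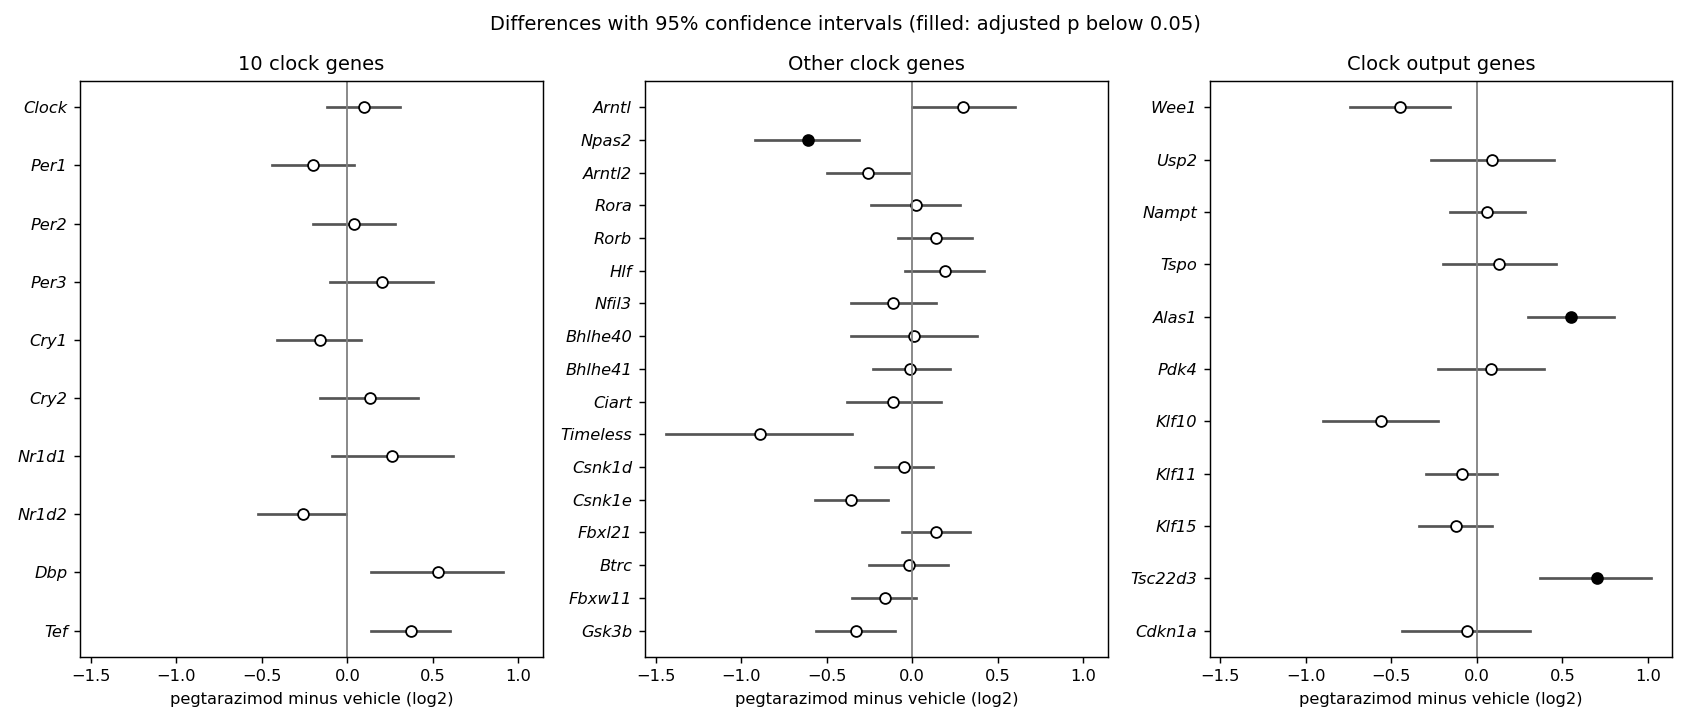
Pegtarazimod minus vehicle (log2) with 95% confidence intervals from limma for the 10 clock genes, 17 other clock genes and 11 clock output genes, 5 arrays per group; filled points passed at an adjusted p below 0.05. None of the 10 clock genes is filled, and Npas2 (-0.61), Alas1 (0.55) and Tsc22d3 (0.70) are.

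Differences of the members were also taken within the 2 sets of replicates, and no member was shown to differ between the sets. Within replicates 1 and 2, Dbp averaged 6.04 in vehicle and 6.96 with pegtarazimod, a difference of 0.92 (1.89-fold) that passed (adjusted p = 0.0147), where 6.30% of all genes passed. Within replicates 3 to 5 its means were 5.99 and 6.25, a difference of 0.26 (adjusted p = 0.492), where 3.34% of all genes passed. The test of the difference between these effects, an interaction term in limma, gave 0.65 for Dbp (unadjusted p = 0.0248, adjusted p = 0.561), so the effects were not shown to differ.

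The difference of Tef was 0.52 (adjusted p = 0.0776) in the former set and 0.27 (0.350) in the latter. Nr1d1 differed by 0.58 and 0.06, and Cry2 by 0.40 and -0.05, with adjusted p of 0.117 and 0.122 in replicates 1 and 2. Across the members 0 interactions passed in limma, against 0.0256% of all genes, and 2 had an unadjusted p below 0.05 (Dbp and Cry2), against 7.65% of all genes. Thus Dbp, Tef, Nr1d1 and Cry2 had their larger differences in replicates 1 and 2, and their mean levels with pegtarazimod there were 6.96, 5.90, 7.61 and 8.11 against 6.25, 5.66, 7.01 and 7.56 in replicates 3 to 5. Clock and Per2 had opposite signs in the sets, at -0.06 and -0.18 in replicates 1 and 2 and 0.21 and 0.18 in replicates 3 to 5, as did Cry1, at 0.08 and -0.32. Per1 (-0.35 and -0.11), Per3 (0.12 and 0.25) and Nr1d2 (-0.17 and -0.33) kept their sign, and the difference of Per1 was also the larger in replicates 1 and 2.

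**Figure D3:**
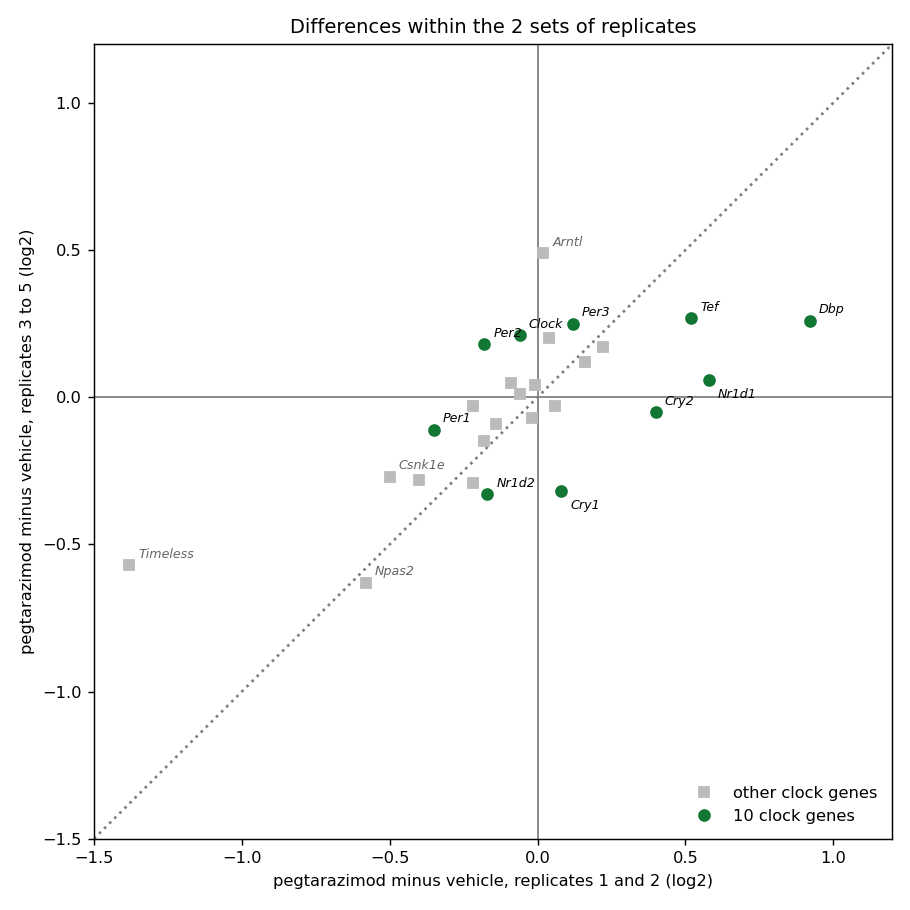
Pegtarazimod minus vehicle (log2) within replicates 1 and 2 (horizontal axis, 2 arrays per group) against replicates 3 to 5 (vertical axis, 3 arrays per group) for the 10 clock genes (circles) and 17 other clock genes (squares); the dotted line marks equal differences. Dbp, Nr1d1, Cry2 and Tef lie to the right of the line, and Npas2 lies near it at -0.58 and -0.63.

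Among 17 measured genes of 19 other clock genes, 0 rose and 1 fell by limma, against 2.50% and 2.39% of all genes for the directions. At an unadjusted p below 0.05 there were 5, against 19.0% of all genes, and the list median was -0.05. The gene that fell was Npas2, which encodes a paralogue of CLOCK that can pair with BMAL1. Npas2 was at 8.32, 8.43, 8.25, 8.08 and 7.90 in vehicle and at 7.85, 7.74, 7.63, 7.63 and 7.08 with pegtarazimod, so that the groups did not overlap. It was 1.53-fold lower, at -0.61 ± 0.14 (SE; adjusted p = 0.0268), beside the 0.10 of Clock. The adjusted p of Npas2 was 0.0555 without vehicle 1, 0.0625 without vehicle 2 and 0.0738 without vehicle 3.

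Arntl, named for its role after its values were seen, was at 7.90, 7.82, 7.20, 7.26 and 7.29 in vehicle and at 8.00, 7.76, 7.64, 7.77 and 7.80 with pegtarazimod. Vehicle 1 and 2 were thus as high as the pegtarazimod arrays, and the difference was 0.30 (adjusted p = 0.270), being 0.02 within the first 2 replicates, whereas replicates 3 to 5 gave 0.49 (adjusted p = 0.0281; interaction adjusted p = 0.522). Csnk1e, a kinase that phosphorylates PER proteins, had groups that did not overlap and a difference of -0.36 that did not pass (adjusted p = 0.0567). Timeless, which also acts in replication, differed by -0.89 (0.0589), the kinase gene Gsk3b by -0.33 (0.0955), and Arntl2, which was below the lower quartile on 4 arrays, by -0.26 (0.215). With the block for the 2 sets of replicates, Timeless (adjusted p = 0.00227) and Csnk1e (0.0353) fell, and Gsk3b did not pass (0.0652). Timeless differed by -1.38 within replicates 1 and 2 (adjusted p = 0.0012) and by -0.57 within replicates 3 to 5 (0.0738). The limma interaction of Timeless was -0.81 (unadjusted p = 0.00676, adjusted p = 0.414), so its effects in the 2 sets were not shown to differ.

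Of 11 measured genes of 12 clock output genes, 2 rose and 0 fell by limma, with 4 at an unadjusted p below 0.05, against 2.50% of all genes higher, 2.39% lower and 19.0% at that unadjusted p, and the list median was 0.06. Alas1, which encodes the rate-limiting enzyme of haem synthesis and is a known REV-ERB and PAR bZIP output, was at 7.25 to 7.78 in vehicle (median 7.72) and 7.96 to 8.35 with pegtarazimod (median 8.15). It was 1.47-fold higher (0.55 ± 0.12 SE, adjusted p = 0.0160), with differences of 0.91 in replicates 1 and 2 and 0.32 in replicates 3 to 5 (the latter at an adjusted p of 0.194). The limma interaction of Alas1 was 0.59 (unadjusted p = 0.00684, adjusted p = 0.414), so these effects were not shown to differ. Tsc22d3, a glucocorticoid-induced leucine zipper gene with a rhythm in several tissues, was at 5.88, 5.49, 5.69, 5.73 and 5.46 in vehicle and at 6.69, 6.72, 6.21, 6.23 and 5.90 with pegtarazimod. Tsc22d3 was 1.62-fold higher (0.70 ± 0.15 SE, adjusted p = 0.0177, and 0.0509 without vehicle 5), with no overlap between groups. Klf10 (-0.56, adjusted p = 0.0540), the cell cycle kinase gene Wee1 (-0.45, 0.0789), Klf15 (-0.12, 0.581) and Klf11 (-0.09, 0.696) did not pass. With the block for the 2 sets Klf10 (adjusted p = 0.0276) and Wee1 (0.0151) fell.

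Signals known to act on Per and D-box genes were read from 3 short lists, whose counts stand against 2.50% of all genes higher and 2.39% lower. Of 6 glucocorticoid receptor targets 1 rose, Tsc22d3, which is also on the output list, and 0 fell, with a list median of -0.07. Fkbp5 differed by -0.35 and did not pass (adjusted p = 0.453). Of 7 measured cAMP-responsive and immediate early genes 1 fell, Atf3 (-0.56, adjusted p = 0.00713), 0 rose, and the median was -0.30. All 7 differences were negative, and 6 had an unadjusted p below 0.05 by limma, against 19.0% of all genes. Egr1 (-0.55) lay just above the threshold, at an adjusted p of 0.0558, and was called in 9 of 21 alternatives. Of 8 NF-kB targets 4 fell and 0 rose, with a median of -0.54: the feedback inhibitors Nfkbia (-1.10) and Tnfaip3 (-1.45), Icam1 (-0.54) and Birc3 (-0.53, adjusted p = 0.0194, and 0.0513 without vehicle 5). The summed level of the NF-kB list was 11.27 to 11.42 in vehicle and 10.26 to 10.64 with pegtarazimod, beside members that did not pass.

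Markers of cell state moved with the groups beside these values, against the same 2.50% of all genes higher and 2.39% lower. Of 8 crypt stem cell genes 7 fell, with the summed level at 12.20 to 12.38 in vehicle and 10.74 to 11.47 with pegtarazimod. Of 9 measured proliferation genes 5 fell, from 12.51 to 12.66 in vehicle to 11.65 to 12.36. Of 8 enterocyte genes 4 rose, from 11.99 to 12.88 in vehicle to 12.84 to 14.02, and the highest sums were those of pegtarazimod 1 and 2 (14.02 and 13.72). All 5 goblet cell genes rose, 3 of 5 Paneth cell genes fell and 2 of 4 measured enteroendocrine genes rose. Their part in the differences of Dbp, Tef, Npas2 and Timeless was not tested.

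**Figure D4:**
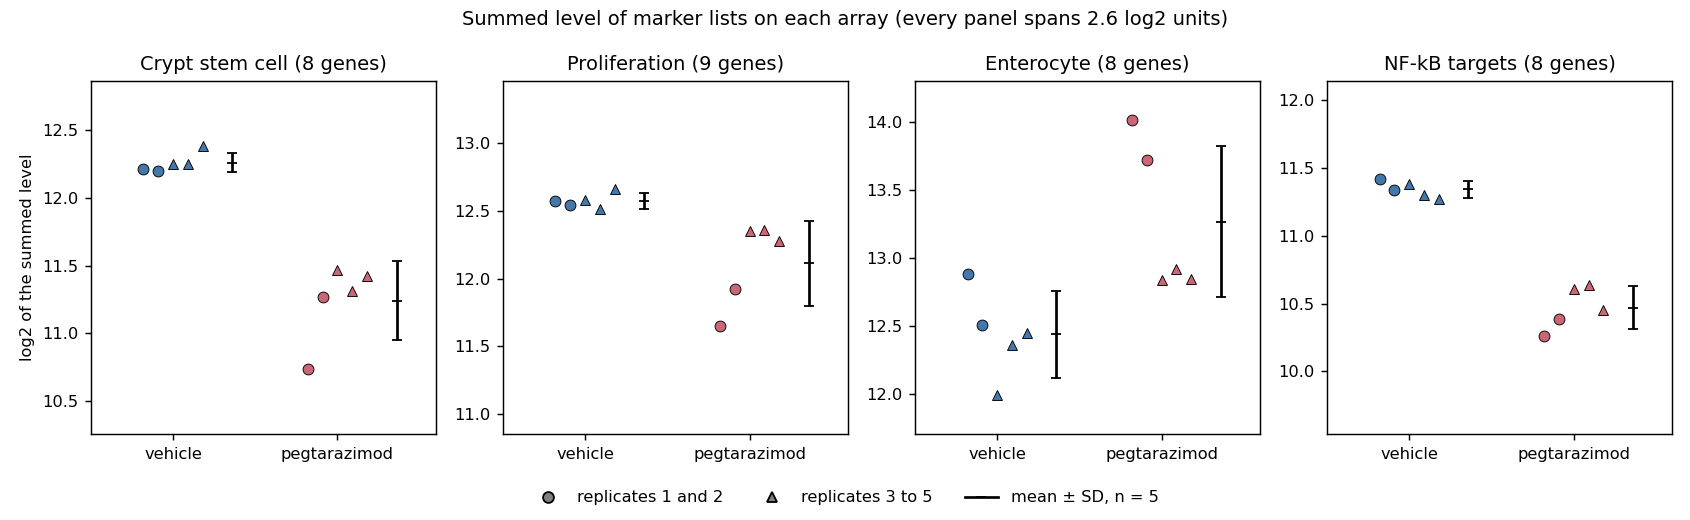
Summed level (log2) of crypt stem cell, proliferation, enterocyte and NF-kB target genes on each array, with circles for replicates 1 and 2, triangles for replicates 3 to 5, and the mean ± SD of 5 arrays per group. The enterocyte sums of pegtarazimod 1 and 2 (14.02 and 13.72) lie above those of pegtarazimod 3 to 5 (12.84 to 12.92).

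Because no member passed, genes with a like pattern were taken for Dbp, by the root mean square difference between profiles standardised over the 10 arrays, where 0 is an identical profile. The 3 most alike were Atg4d (0.26), Fgf13 (0.28) and Vti1b (0.30). Atg4d was 1.43-fold and Vti1b 1.41-fold higher, and neither passed (limma adjusted p = 0.0584 and 0.0658). Fgf13 lay below the lower quartile on all 10 arrays, so its profile spans a narrow range of dim values. Tef was the 6th most like Dbp at 0.32, and Nr1d1 was 390th at 0.56. Nr1d2 was the least like Dbp among the members, at 1.63. The choice over all genes favours profiles that match by chance in 10 arrays.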

How the data were processed

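RNA of 10 organoid cultures, 5 per group, was measured on single-colour arrays, with groups and replicate numbers taken from the sample titles. Per the submitters' processing notes, the authors used oligo and RMA, and the deposited table gives log2 expression of each probe set. RMA subtracts background, makes the arrays alike by quantile normalisation and summarises probes, so a shift shared by most genes is hidden. Tool versions and the genome build are unstated in the labels.

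Of 22203 probe sets, 19572 had a single gene symbol in the platform annotation and were kept. The other 2631, by the rule those with no symbol or more than 1, were left out. The probe sets kept gave 19505 genes. For 55 genes with more than 1 probe set, the brightest by its mean was taken. Group differences came from limma 3.58.1 (R 4.3.3) without covariates, at a threshold of 0.05 after Benjamini-Hochberg adjustment over all 19505 genes. The test was checked on simulated data. No detection calls were used, and the number of arrays limits the precision.

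The members and lists were chosen with earlier results of these data known. Named were all members, list genes that passed, up to 4 others per list with the smallest p, and the 3 genes most like Dbp. Alternatives were other scalings, filters on dim genes, priors, array weights, blocks, the mean over probe sets, fits within sets of replicates and leaving out each array. Figures were drawn with matplotlib 3.10.9 in Python 3.11.15.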

Additional observations from a re-analysis of the deposited data

Results flagged for a closer look

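Among 38 named genes in 2 groups of 5 arrays, 5 values lay far from the rest of their group, and about 5% of such groups do so by chance. Per3 was 6.30 on pegtarazimod 4, against 6.72 to 6.88 on the other pegtarazimod arrays, and the same replicate number was the lowest for Per3 in vehicle. Klf10 was 8.48 on vehicle 2, with the nearest array at 9.09. Dusp1 was 7.39 on vehicle 2 (nearest 8.35) and 6.83 on pegtarazimod 2 (nearest 7.98), and Cxcl1 was 3.71 on pegtarazimod 2 (nearest 4.77).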

How the results depend on the processing

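Over 21 alternatives, 197 of 209 differences of the 10 members kept their sign and stayed on the same side of the threshold, 6 passed (Dbp 4 times, Tef 2 times) and 6 changed sign. Tef was among the dimmest 50% of genes and had no value without them. The count of members that rose went from 0 to 1 with a replicate block (Dbp, adjusted p = 0.0388), to 2 with replicates 1 and 2 against 3 to 5 as a block, to 1 within replicates 1 and 2, and lay between 0 and 2 on leaving out 1 array. Correlations of the deviations of same-numbered arrays were 0.299, 0.310, 0.099, 0.227 and 0.130 over genes, and 8 of 10 arrays correlated best with their own number. Same-numbered arrays thus tended to deviate alike, though pair 3 lay just below the minimum of 0.1 used here. No label says what a number marks, so the replicate block was fitted only as an alternative. The number of all genes called was 954, against 1606 with the replicate block, 1820 with the block for the 2 sets, and 437 (without vehicle 3) to 1245 (without pegtarazimod 4) on leaving out 1 array. It was also below 954 by over 1.5 times without vehicle 4 (498), vehicle 5 (562), pegtarazimod 1 (552) or pegtarazimod 2 (522).

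Other clock genes that fell numbered 1, against 2 with quantile normalisation or without the dimmest 25%, 4 without the dimmest 50%, 3 with an intensity trend and robust priors or with array weights, 4 with the replicate block (Npas2, Timeless at an adjusted p of 0.00363, Csnk1e at 0.0417 and Gsk3b at 0.0475), 3 with the block for the 2 sets (Npas2, Timeless and Csnk1e), and 0 to 2 on leaving out 1 array. The share of all genes called in either direction moved too. It was 4.89% in the main fit, 4.86% with quantile normalisation, and 7.25% and 13.3% without the dimmest 25% and 50%. With an intensity trend it was 5.77%, with array weights 5.42%, with the replicate block 8.23% and with the block for the 2 sets 9.33%. Of the other clock genes, 14 and 11 were left without the dimmest 25% and 50%. Within replicates 3 to 5 Arntl rose, 1 gene against 0. Clock output genes that fell numbered 0, against 1 with quantile normalisation, without the dimmest 25% or within replicates 1 and 2, 2 without the dimmest 50%, with an intensity trend, with the replicate block (Klf10 at 0.0142 and Wee1 at 0.0313) or with the block for the 2 sets (the same 2 genes), and 0 to 1 on leaving out 1 array. Those that rose numbered 2, against 0 within replicates 3 to 5 and 1 to 2 on leaving out 1 array. Of the glucocorticoid, immediate early and NF-kB genes together 5 fell, against 8 with the replicate block and 3 within either set of replicates, and 1 rose, against 0 within replicates 3 to 5 and 0 to 1 on leaving out 1 array. Fewer arrays enter each fit within a set.

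Signs turned for differences near 0. Within replicates 1 and 2 Clock was -0.06, Per2 -0.18, Cry1 0.08 and Cxcl2 -0.02, and within replicates 3 to 5 Cry2 was -0.05, Zbtb16 0.09 and Klf9 0.06. On leaving out 1 array Per2 ranged from -0.04 to 0.10, Cxcl2 from -0.06 to 0.08, Zbtb16 from -0.13 to 0.01 and Klf9 from -0.19 to 0.03. Counts of promoters with a motif were the same with the 50 bases after the start included. Where not stated, the cause was not tested.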
